A study of Mus musculus with 21 samples.

Results

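A set of 10 immune checkpoint genes was followed through the skin and lymph node libraries of mice that overexpress interferon kappa in the epidermis. They were picked by exact symbol: Pdcd1, Lag3, Tigit, Btla and Havcr2 (inhibitory receptors), Cd274, Pdcd1lg2 and Cd80 (ligands), Tox (a transcription factor) and Ido1 (an enzyme). All 10 were found among the 55491 genes of the skin table and again among the 55491 genes of the node table. All 10 passed the filter on low counts in skin, where 19101 genes were tested, and 9 of the 10 passed it in the nodes, where 16173 genes were tested. Ido1 was the exception, with between 0 and 8 counts in each node library.

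All mice were BALB/c. The Ifnk transgenic (Ifnk TG) mice carry Ifnk, a type I interferon of keratinocytes, under the keratin 14 promoter, which is active in basal keratinocytes; the transgene was made on C57BL/6 and backcrossed for more than 8 generations. Skin was taken at 12 months of age from wild-type mice (WT, 3 libraries), from nonlesional skin of Ifnk TG mice (NL, 2 libraries) and from lesional skin of Ifnk TG mice (L, 4 libraries). The labels mark all skin libraries as untreated. Inguinal nodes, which drain the skin, came from WT and Ifnk TG mice that were left unirradiated or received UVB (250 mJ/cm2 on 3 days per week for 2 weeks, collected after 2 further weeks), with 3 libraries in each of the 4 groups. For the node libraries no age is given in the labels. The labels give each library its own number and place all in batch 1, and they name neither the mouse, the sex nor the body site, so p-values measure only the spread between these libraries.

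Immune checkpoints are receptor and ligand pairs that damp lymphocyte activation. PD-1, the product of Pdcd1, appears on activated T cells and signals when it meets PD-L1 (Cd274), made by many cell types under interferon, or PD-L2 (Pdcd1lg2), made mainly by dendritic cells and macrophages. LAG-3 binds MHC class II, TIGIT binds nectins and the poliovirus receptor, BTLA binds HVEM (Tnfrsf14) and TIM-3 (Havcr2) binds galectin-9. CD80 on antigen-presenting cells is shared by the activating receptor CD28 and the inhibitory receptor CTLA-4. TOX drives the gene programme of T cells under lasting stimulation, and IDO1 removes tryptophan by turning it into kynurenines. In skin such genes can reflect activated lymphocytes, other immune cells or the response of tissue cells to interferon. Which of these applies to each gene here was not tested.

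The genes lie at the following places in GRCm38 (GENCODE M21 annotation). Cd274 (ENSMUSG00000016496) and Pdcd1lg2 (ENSMUSG00000016498) follow each other on the plus strand of chromosome 19, at 29367455 to 29388095 and 29410919 to 29471161. Pdcd1 (ENSMUSG00000026285) lies on the minus strand of chromosome 1 at 94038305 to 94052553. Lag3 lies on chromosome 6 at 124904361 to 124911705, and Havcr2 on chromosome 11 at 46454935 to 46481255. Chromosome 16 holds Tigit at 43648867 to 43664146, Btla at 45224315 to 45257670 and Cd80 at 38455561 to 38496335. Tox spans 6686353 to 6991557 of chromosome 4, and Ido1 spans 24584136 to 24597009 of chromosome 8. Cd274 overlaps AC119228.1, Pdcd1lg2 overlaps A930007I19Rik and Tox overlaps Gm11802 on the opposite strand; whether the counting used strand is not given in the sources used here, so reads of these pairs cannot be told apart.

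The 250 bases before the start that RefSeq (GRCm38.p6) gives were found for 7 of the 10 genes; for Btla and Cd80 that start lies inside the gene span above. The windows of 4 genes are shown, which were called in lesional against WT skin and held a searched motif; Btla was called and held none. They are the windows of Pdcd1 (chr1:94052554-94052803, minus strand), Cd274 (chr19:29367188-29367437, plus strand), Pdcd1lg2 (chr19:29410669-29410918, plus strand) and Tigit (chr16:43664185-43664434, minus strand). Each is printed 5′ to 3′ on the strand of its gene, with matches to the searched motifs in capitals.
Pdcd1: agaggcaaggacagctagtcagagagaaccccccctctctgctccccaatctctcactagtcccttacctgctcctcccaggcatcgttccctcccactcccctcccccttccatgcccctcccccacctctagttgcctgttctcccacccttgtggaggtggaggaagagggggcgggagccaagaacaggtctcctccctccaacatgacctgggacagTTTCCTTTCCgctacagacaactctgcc
Cd274: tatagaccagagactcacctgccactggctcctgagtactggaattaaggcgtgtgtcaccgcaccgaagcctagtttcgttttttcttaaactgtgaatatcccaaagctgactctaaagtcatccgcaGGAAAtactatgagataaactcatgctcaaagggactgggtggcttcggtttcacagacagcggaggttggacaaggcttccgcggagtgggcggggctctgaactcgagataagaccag
Pdcd1lg2: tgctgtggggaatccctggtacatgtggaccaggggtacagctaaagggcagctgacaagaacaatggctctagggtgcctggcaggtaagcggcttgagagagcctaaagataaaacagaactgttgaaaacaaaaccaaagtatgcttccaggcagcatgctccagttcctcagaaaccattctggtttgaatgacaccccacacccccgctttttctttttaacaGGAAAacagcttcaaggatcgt
Tigit: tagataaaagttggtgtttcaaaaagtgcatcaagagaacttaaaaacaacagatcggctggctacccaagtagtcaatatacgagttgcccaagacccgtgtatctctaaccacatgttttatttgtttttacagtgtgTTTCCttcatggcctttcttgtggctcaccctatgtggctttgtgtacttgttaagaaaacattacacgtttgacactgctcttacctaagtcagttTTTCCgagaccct

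The motifs were searched on both strands. They were the interferon-gamma activated site TTCNNNGAA and the core of the interferon-stimulated response element (GAAA, any 2 bases, GAAA). The others were a wide form of the AP-1 site (TGANTCA, any middle base) and the NFAT core GGAAA. In this order the letters occur in 7.02%, 2.98%, 6.75% and 55.6% of the 32851 promoter windows of the table. All capitals in the 4 windows mark the NFAT core, whose first base stands at -28 and -23 from the start of Pdcd1 and at -110 and -13 from that of Tigit (there as its reverse complement TTTCC), at -120 from that of Cd274 and at -22 from that of Pdcd1lg2. Havcr2 and Cd80 each held 1 match to the wide AP-1 form, TGATTCA in both, and Btla none of the 4 motifs. Neither interferon motif was found in any of the 7 windows, which says only that these letters are absent from these 250 bases.

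The skin libraries held 40499078 to 56511276 counts and the node libraries 27599809 to 36428435. Ifnk was at 0 counts in the 3 WT skin libraries, at 5 to 14 counts in the 4 L libraries, at 6 and 0 counts in the 2 NL libraries and at 0 in every node library, so in the nodes and in 1 NL library it does not check the labels. Keratinocyte genes summed to between 7800 and 22700 CPM (counts scaled to library size) in skin and to between 1.2 and 2.51 CPM in the nodes, where B cell genes summed to between 1240 and 2400 CPM. Hair shaft keratins summed to 0.148 to 1.05 CPM in WT and NL skin and to 1360 to 4170 CPM in L skin, and skeletal muscle genes to 26100 to 38900 CPM and 27.2 to 7500 CPM, so the skin groups also differed in the tissue they held. CPM here are scaled by TMM, a method that sets library sizes from the bulk of the genes.

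Lesional skin was compared with WT skin to ask which checkpoint genes accompany the lesions. In L skin 6 members rose: the receptors Pdcd1, Lag3, Tigit and Btla and the PD-1 ligands Cd274 and Pdcd1lg2. In each of these 6 every L library lay above every WT library. The other 4, Havcr2, Cd80, Tox and Ido1, did not pass the test and their groups overlapped. Of all tested genes, 43.1% were called in this comparison, 23.0% higher and 20.2% lower, and 26.0% had every L library above every WT library, against 6 of 10 members on either count; no member had every L library below, against 23.4% of genes. Pdcd1, Pdcd1lg2, Tigit and Ido1 passed the filter on low counts only through the L libraries, so these shares are no like-for-like background for them. Of the 6 members that passed it without L libraries 3 were called higher (Cd274, Lag3 and Btla), against 21.5% of the 17684 such genes, and their median log2 fold change was 1.01. With at least 10 counts in every library 5 members were tested and 2 called. At an unadjusted p under 0.05 in edgeR stood the same 6 members and 51.7% of genes. The members were chosen with earlier results of these data known, so a comparison with these shares may not be independent of that choice. The median log2 fold change was 1.78 over the members, also with Tigit set to a floor of 3 counts in WT, which describes all 10, and 0.0613 over all tested genes. In bulk tissue, more cells of a type and more RNA per cell cannot be told apart.

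Pdcd1 was nearly absent from unaffected skin. The WT libraries held 4, 1 and 2 counts, the NL libraries 0 and 0, and the L libraries 45, 54, 114 and 27 counts. In CPM this was 0.055 ± 0.034 in WT (SD, n = 3) and 1.29 ± 0.89 in L (SD, n = 4). All 4 L libraries stood far above the other 5, and they differed among themselves by several fold. The log2 fold change of L over WT was 4.47 ± 0.79 (SE; edgeR adjusted p = 0.00335), which is 22.2-fold. From counts alone, 240 in L against 7 in WT, the ratio was 22.1 with an exact 95% Poisson interval of 10.5 to 55.5, which covers counting error only. Against NL skin, with no count in either library, Pdcd1 was at least 19.7-fold higher in L skin at a floor of 3 counts per library (edgeR adjusted p = 0.00518).

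Pdcd1lg2, the PD-L2 gene, followed the same course. WT libraries held 5, 2 and 4 counts, NL libraries 4 and 2, and L libraries 56, 33, 91 and 81. The 5 libraries without lesions lay between 0.0475 and 0.114 CPM and the 4 L libraries between 0.814 and 2.01 CPM, with no overlap. L skin exceeded WT skin by 3.89 ± 0.51 on the log2 scale (SE; edgeR adjusted p = 0.000624), a 14.8-fold difference. It exceeded NL skin by 4.32 ± 0.63 (SE; edgeR adjusted p = 0.0027).

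Cd274, the PD-L1 gene, was more abundant per length than Pdcd1lg2 already in WT skin (4.68 against 0.106 TPM, counts per exon length scaled to the library). Its CPM were 10.6, 5.53 and 5.24 in WT, 11.4 and 4.98 in NL, and 33.2, 22.6, 37.0 and 11.9 in L. The lowest L library stood just above the highest NL and WT libraries. L skin exceeded WT skin by 1.88 ± 0.48 on the log2 scale (SE; edgeR adjusted p = 0.0144), or 3.67-fold. This call was lost without WT replicate 9 (adjusted p = 0.0571) or WT replicate 10 (adjusted p = 0.0566 in edgeR). Against NL skin the log2 difference was 1.67 ± 0.56 (SE; edgeR adjusted p = 0.0594), which missed the threshold, although DESeq2 gave an adjusted p of 0.00428 and edgeR 0.0277 without L replicate 7.

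Among the other receptors, Tigit had 0, 0 and 1 counts in WT, 1 and 1 in NL and 25, 4, 24 and 16 in L skin. The ratio of counts was 44.4 for L over WT, with an exact 95% Poisson interval of 7.71 to 1780, and 16.4 for L over NL, with an interval of 4.36 to 138. The edgeR adjusted p was 0.00504 against WT and 0.03 against NL. The call against NL was lost without L replicate 6 (adjusted p = 0.0552), NL replicate 2 (0.194) or NL replicate 3 (0.168 in edgeR).

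Btla, a receptor of B and T cells, had 0.114, 0.38 and 0.371 CPM in WT, 0.229 and 0.319 in NL and 1.69, 0.863, 1.43 and 1.73 in L skin. All L libraries stood above all others. The log2 difference was 2.31 ± 0.48 against WT (SE; edgeR adjusted p = 0.00505) and 2.38 ± 0.56 against NL (SE; edgeR adjusted p = 0.0166). The latter call was lost without NL replicate 2 (adjusted p = 0.131) or NL replicate 3 (0.0922 in edgeR). The 6 B cell genes summed to 0.776, 0.57 and 3.21 CPM in WT, 2.18 and 0.957 CPM in NL and 0.937 to 2.11 CPM in L skin. WT replicate 10 and NL replicate 2 lay above every L library, and WT replicates 8 and 9 lay below. In L against WT skin 0 of 5 tested B cell genes were called and 2 of 5 lay higher (median log2 fold change -0.26). Against NL skin 0 of 5 were called and 1 of 5 lay higher (median -0.6). The part of B cell genes in the Btla values was not tested.

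Lag3 stepped from WT through NL to L skin. Its CPM were 0.456, 0.57 and 0.519 in WT, 1.09 and 0.662 in NL and 1.46, 1.43, 2.51 and 1.26 in L, so that no 2 groups overlapped. The difference passed the test for L over WT, at 1.69 ± 0.35 on the log2 scale (SE; edgeR adjusted p = 0.0053). It did not pass for L over NL, at 0.92 ± 0.39 (SE; edgeR adjusted p = 0.115), nor for NL over WT, at 0.77 ± 0.40 (SE; edgeR adjusted p = 0.701), where 18.6% of genes had both NL libraries above all WT libraries.

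**Figure D1:**
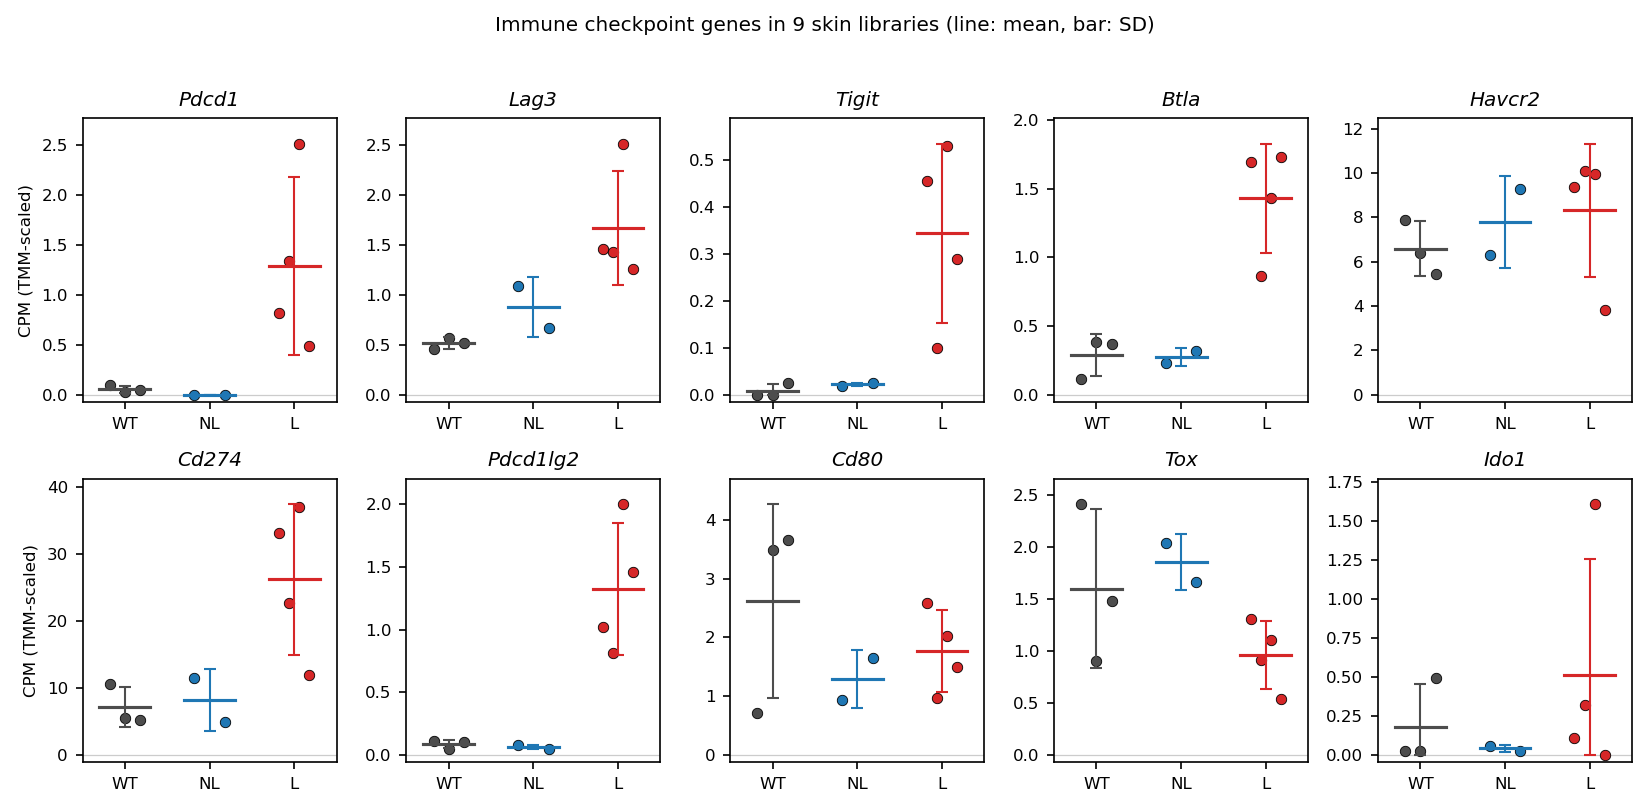
CPM of each checkpoint gene (vertical axes, linear, TMM-scaled) in the WT (3), NL (2) and L (4) skin libraries, with 1 point per library, the group mean as a line and the SD as a bar. For Pdcd1, Pdcd1lg2, Tigit, Btla, Lag3 and Cd274 every L point lies above every WT and NL point, and for Havcr2, Cd80 and Ido1 the L and WT points overlap.

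TIM-3, CD80, TOX and IDO1 gave another picture. Havcr2, already among the more abundant members, had 5.44 to 7.89 CPM in WT, 6.31 and 9.27 in NL and 9.36, 10.1, 9.96 and 3.8 in L skin. Of the L libraries 3 lay above all the WT libraries and L replicate 7 lay below them. The log2 difference from WT was 0.33 ± 0.34 (SE; edgeR adjusted p = 0.452), with a 95% interval of -0.43 to 1.1. Without L replicate 7 it was 0.58 and passed the test (edgeR adjusted p = 0.0498).

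Cd80 had 0.707, 3.49 and 3.66 CPM in WT, 0.936 and 1.64 in NL and between 0.962 and 2.59 in L skin. WT replicate 8 stood well below the other 2 WT libraries, and the interval of the log2 difference between L and WT, -1.82 to 0.69, was correspondingly wide. Tox was the member with the lowest values in L skin relative to the other groups, at 0.54 to 1.31 CPM against 0.902 to 2.42 in WT and 1.67 and 2.05 in NL. All L libraries lay below both NL libraries, a pattern shared by 24.7% of tested genes, and the log2 difference of -0.94 ± 0.45 did not pass the test (SE; edgeR adjusted p = 0.153). Ido1 was read from few counts. The WT libraries had 1, 1 and 20, the NL libraries 3 and 1, and the L libraries 6, 13, 73 and 0 counts. The log2 difference between L and WT was 1.49 ± 1.52 (SE; edgeR adjusted p = 0.46), so a change of Ido1 was not detectable with these libraries.

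In lesional against nonlesional Ifnk TG skin, 4 of 10 members rose: Pdcd1, Pdcd1lg2, Tigit and Btla. Of all tested genes 25.0% were called and 13.2% were called higher. Of these 4 only Btla passed the filter on low counts without the L libraries; it was the 1 member called among the 6 that did, against 11.9% of such genes called higher, and with at least 10 counts in every library 0 of 5 members were called. Every L library exceeded both NL libraries for 6 of 10 members, the 4 called ones with Cd274 and Lag3, against 24.7% of tested genes. These 6 also had an unadjusted p under 0.05 in edgeR, as did 39.0% of genes. The median log2 fold change was 2.03 over the members, also with genes at the floor set to their bound, and 0.0337 over all tested genes. Over the 6 members that passed the filter without the L libraries the median was 0.69, against -0.0113 over such genes. Without NL replicate 2 or NL replicate 3, 2 members were called, Pdcd1 and Pdcd1lg2, and the calls over all genes fell from 4782 of 19101 to 1470 of 20139 and 1182 of 20195. L skin is in both this comparison and the one with WT, so the 2 comparisons are not independent.

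Nonlesional skin was not told apart from WT skin for any member. None of the 10 was called by edgeR, and neither was any of the 19101 tested genes (0%). At an unadjusted p under 0.05 edgeR held 1465 genes (7.67%), Pdcd1 among them (unadjusted p = 0.0449) at 7 counts in all against none, and 16.3% of genes lay lower in both NL libraries than in WT. DESeq2 called 80 genes and no member. Apart from Pdcd1, Tigit and Ido1, which were at or near the floor in NL skin, the log2 differences ran from -1.02 for Cd80 (95% interval -2.59 to 0.54) to 0.77 for Lag3 (-0.15 to 1.68), and with 2 NL libraries such intervals leave room for changes of more than 2-fold.

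**Figure D2:**
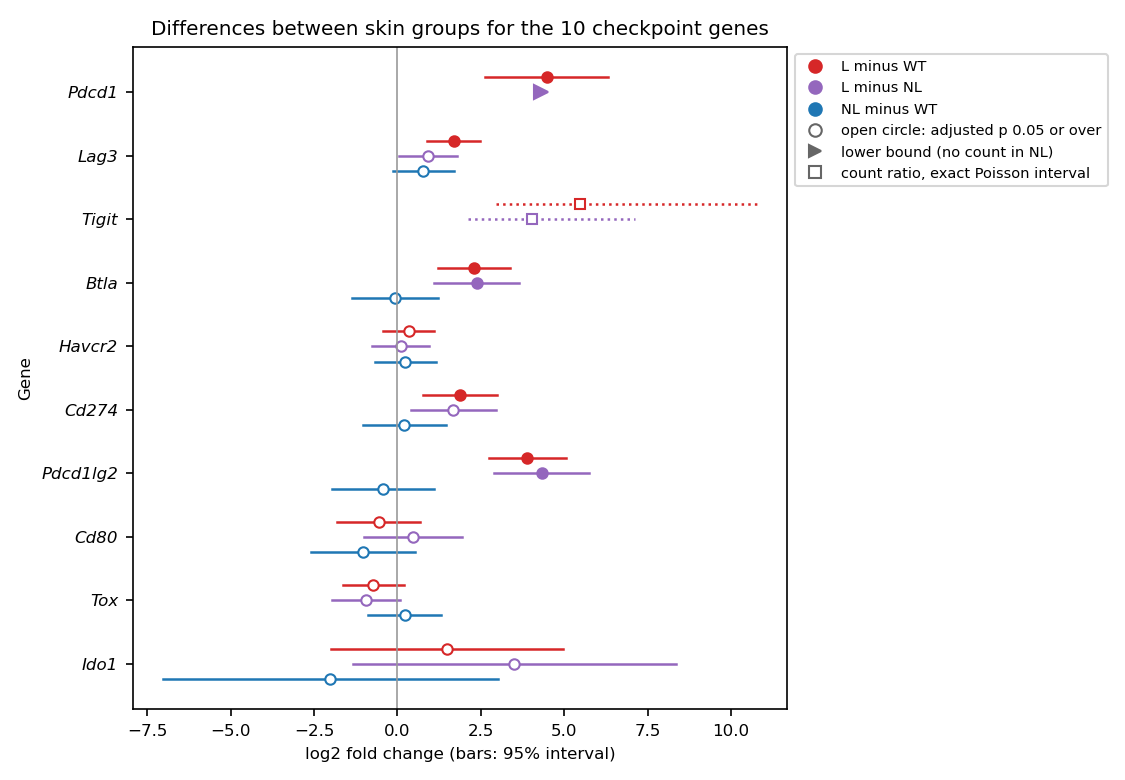
Log2 fold changes (horizontal axis) of the 10 checkpoint genes between skin groups, as points with 95% intervals, filled where the adjusted p of edgeR was under 0.05. Squares are ratios of counts with exact Poisson intervals for Tigit and the triangle is the lower bound for Pdcd1 over NL skin, and the values of NL minus WT for these genes are left out; L minus WT lies at 4.47 for Pdcd1 and at 3.89 for Pdcd1lg2, while NL minus WT crosses 0 for every gene drawn.

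Levels per length (TPM, counts divided by union exon length and scaled to the library) put the members in an order that changed with the lesion. In WT skin Havcr2 (5.77 TPM) and Cd274 (4.68 TPM) came first with overlapping libraries, above Cd80 (1.7 TPM), and Tigit (0.0217 TPM) and Pdcd1 (0.0676 TPM) came last. In L skin Cd274 came first at 17.4 TPM, with libraries from 8.95 to 27.5 TPM that overlapped those of Havcr2 (7.24 TPM). Lag3, Pdcd1lg2, Pdcd1, Cd80, Btla and Tigit followed between 1.94 and 0.924 TPM, each overlapping its neighbour, and Tox came last at 0.302 TPM.

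The companion lists show which other genes of the pathway moved between WT and L skin, where 23.0% of all tested genes were called higher and 20.2% lower. Of 8 co-stimulatory receptors 7 rose and 1 did not pass (median log2 fold change 1.65). Icos, a receptor of activated and follicular helper T cells, rose 28.3-fold from 0.174 to 5.01 CPM (edgeR adjusted p = 0.000918). Tnfrsf9, which encodes 4-1BB, rose 7.93-fold (edgeR adjusted p = 0.00169). Of 11 other inhibitory receptors tested 2 rose, 1 fell and 8 did not pass (median -0.14). Cd5, a T cell surface receptor, rose 12.2-fold, and Ctla4 rose 3.08-fold with overlapping libraries (edgeR adjusted p = 0.0349). Vsir, which encodes VISTA of myeloid and T cells, fell by 0.51 on the log2 scale (edgeR adjusted p = 0.0231).

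Of 11 ligands and binding partners 4 rose, 2 fell and 5 did not pass (median 0.36). The ligands of TIGIT were divided: Nectin2 rose 2.34-fold (edgeR adjusted p = 0.000111) whereas Nectin3 fell by 0.71 and Pvr fell by 1.01 on the log2 scale. Cd200, whose product restrains myeloid cells, rose 1.85-fold. Tnfrsf14, the partner of BTLA, and Cd86, the relative of CD80, did not pass, at log2 differences of 0.41 and -0.04. Of 11 transcription factors 2 rose, Prdm1 (3.02-fold) and Tcf7 (3.48-fold), Irf4 fell by 1.16 on the log2 scale, and 8 did not pass (median -0.22). Prdm1 encodes BLIMP-1 of effector cells and of the epidermis, and Tcf7 encodes TCF-1 of naive and stem-like T cells.

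In the interferon-gamma list 5 of 12 rose, 2 fell and 5 did not pass (median 1.38). Cxcl9, a chemokine induced by interferon-gamma, rose 62-fold from 1.29 ± 0.82 CPM (SD, n = 3) to 80.8 ± 66.6 CPM (SD, n = 4). Socs1, the feedback inhibitor of JAK kinases, rose 3.55-fold, and the kinase gene Jak1 and the receptor gene Ifngr1 fell by 0.72 and by 0.86 on the log2 scale. Among 6 genes of kynurenine metabolism Haao rose 4.05-fold, Afmid fell by 0.98 on the log2 scale and 4 did not pass (median -0.26). Beside these counts and medians, the shares over all tested genes were 23.0% higher and 20.2% lower and the median was 0.0613.

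Against NL skin, where 13.2% of all tested genes were called higher in place of 23.0%, 3 of 8 co-stimulatory receptors, 1 of 11 other inhibitory receptors, 4 of 11 ligands and 3 of 12 interferon-gamma genes rose. Called lower were 2 of 11 ligands and 1 of 12 interferon-gamma genes, against 11.8% of all tested genes. Of 11 transcription factors 2 rose and 1 fell, and 0 of 6 kynurenine genes were called. Icos was 17.5-fold, Cd5 6.32-fold, Cxcl9 57.7-fold and Nectin2 1.79-fold higher in L skin. Vtcn1, the gene of the inhibitory ligand B7-H4, rose 4.9-fold (edgeR adjusted p = 0.0262), and Nectin3 fell by 1.2 on the log2 scale (edgeR adjusted p = 0.000812). No list held a called gene between NL and WT skin.

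**Figure D3:**
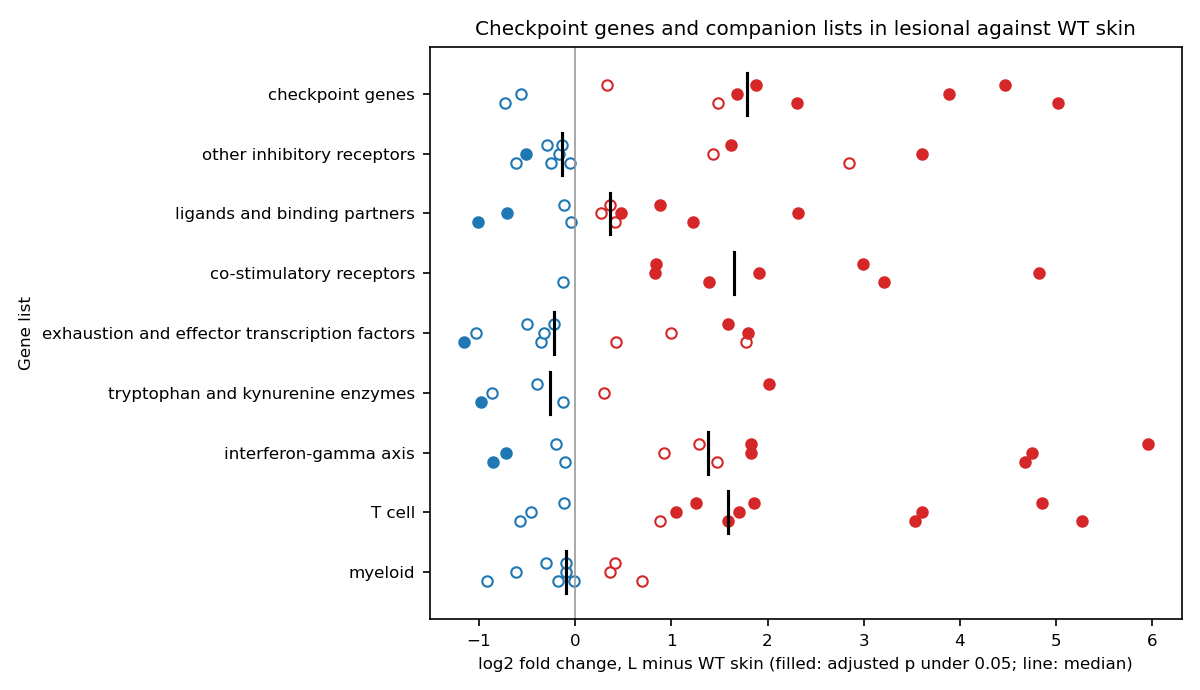
Log2 fold changes of L minus WT skin (horizontal axis) for the genes of each list (vertical axis), 1 point per tested gene, filled where the adjusted p of edgeR was under 0.05, with the list's median as a line. The median of the checkpoint genes is 1.78 and that of the co-stimulatory receptors 1.65, while the myeloid list lies around 0 with 0 of 10 genes called. Pdcd1, Pdcd1lg2, Tigit and Ido1 passed the filter on low counts only through the L libraries. Over the 6 checkpoint genes that passed without them the median is 1.01.

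Some markers of T cells were also higher in L than in WT skin. In L against WT skin 9 of 13 T cell genes rose (median 1.59), where 23.0% of all tested genes were called higher. Among them were Cd5 of the list above, Cd8b1, Cd8a, Trac, Cd4 and Lck, while Cd3d, Cd3e, Cd3g and Cd247 did not pass. Cd8a went from 0.273 to 7.93 CPM and Cd4 from 2.37 to 8.6 CPM, whereas Cd3g was at 18.5 CPM in WT and 17.1 CPM in L. Summed over the list, L libraries had 55.2 to 128 CPM, with L replicate 7 the lowest, WT libraries 46.6 to 61.5 CPM and NL libraries 63.6 to 76.8 CPM. Against NL skin 3 of 13 T cell genes rose (median 1.07), where 13.2% of all tested genes were called higher. Myeloid genes summed to 511 to 1400 CPM in L and 633 to 1470 CPM in WT skin, and none of the 10 was called. Of 8 dendritic cell genes 3 rose and 1 fell against WT skin. NK cell genes summed to 3.63 to 7.34 CPM in L, below the 7.93 to 10.9 CPM of WT and 9.33 to 17.7 CPM of NL skin, and 1 of 4 tested fell. The list did not follow its sum, since 2 of 4 genes lay higher in L than in WT (median log2 fold change 0.52). Against NL skin 3 of 4 lay higher (median 0.88), with 1 called higher and 1 called lower. Adipocyte genes summed to 621 to 3040 CPM in L, 4210 to 7820 CPM in WT and 3570 to 4790 CPM in NL skin, and 2 of 5 fell against WT. The part of these cell types in the members' values was not tested.

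A fit with libraries scaled to the summed counts of the 13 T cell genes gave each member relative to that sum. It moved the median of all tested genes from 0.0613 to -0.69, and its calls were 1094 higher and 5477 lower in place of 4386 and 3851. Pdcd1, Pdcd1lg2 and Tigit kept their calls, with log2 differences of 3.58 for Pdcd1 (edgeR adjusted p = 0.00162) and 3.22 for Pdcd1lg2 (edgeR adjusted p = 0.00184). All of them passed the filter on low counts only through the L libraries. Cd274 at 0.99, Lag3 at 0.85 and Btla at 1.59 no longer passed (adjusted p = 0.0691, 0.249 and 0.063 in edgeR). Tox fell by 1.55 and Cd80 fell by 1.40 and both passed (adjusted p = 0.021 and 0.0493 in edgeR). These values hold the shift of -0.69 in the median of all genes, below which Tox and Cd80 lay. The T cell sum joins genes that rose, such as Cd8a, with genes that did not pass, such as Cd3g. A value relative to it is therefore no value per T cell, and whether members rose beyond the T cells that increased was not tested. Scaled to the summed myeloid genes, which moved the median to 0.31 and gave 1895 higher and 1031 lower calls, 5 of these 6 members were called, the exception being Lag3 (adjusted p = 0.0602 in edgeR).

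**Figure D4:**
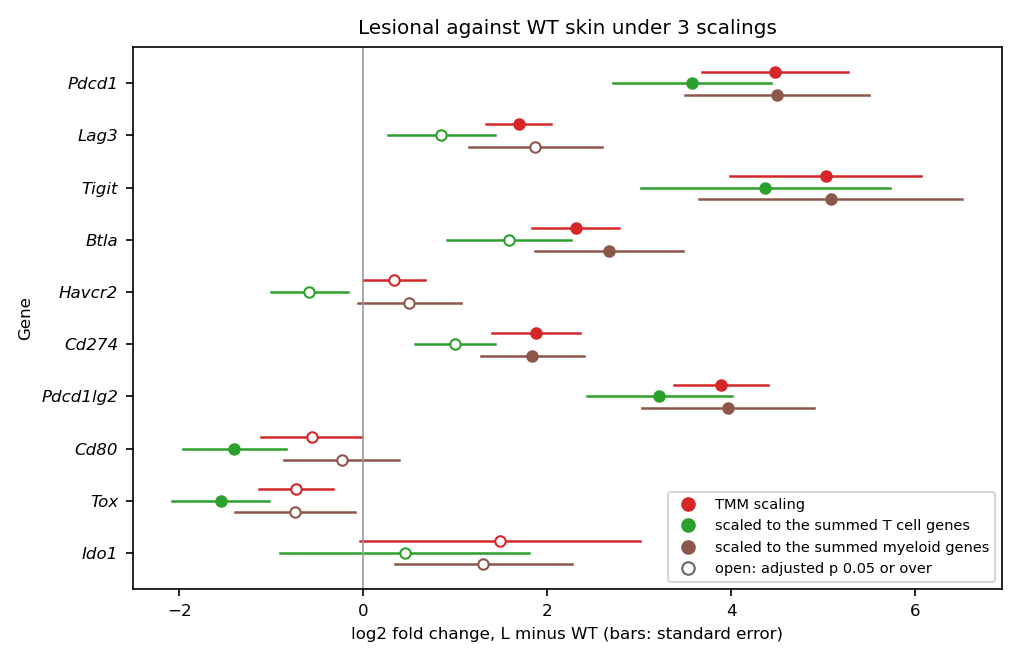
Log2 fold changes of L minus WT skin (horizontal axis, bars are SE) for each checkpoint gene under TMM scaling, scaling to the summed T cell genes and scaling to the summed myeloid genes, filled where the adjusted p of edgeR was under 0.05. Pdcd1, Pdcd1lg2 and Tigit are filled under all 3 scalings (the fitted value of Tigit depends on the prior count, since WT held 1 count), Havcr2 changes side of 0 under the T cell scaling, at -0.59, and Tox and Cd80 are filled below 0 under it.

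In the nodes Btla was the most abundant member per length in every node group, at 134 to 163 TPM on average, and exceeded Cd274 (28.8 to 46.1 TPM) and Tox (17.8 to 20.7 TPM) in every library. Lag3, Tigit and Pdcd1 followed, with overlapping libraries, between 7.62 and 15.7 TPM, then Pdcd1lg2, Havcr2 and Cd80, and Ido1 stood last at 0.059 to 0.262 TPM. Ranked among all tested genes by CPM, Btla lay at the 92.5th to 94.3rd percentile. The tables of the 2 tissues were normalised apart, so no test was made between them.

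In WT nodes UVB was compared with no irradiation to ask for its lasting effect on the draining node. None of 9 tested members was called by edgeR, where 4.98% of all genes were called (2.92% higher and 2.06% lower), and DESeq2 called none of them either. At an unadjusted p under 0.05 there were 3 of 9 members, against 26.3% of genes. Every irradiated library lay above every unirradiated one for 5 of 9 members (Pdcd1, Lag3, Tigit, Havcr2 and Cd80), against 19.8% of genes, and below for Tox, against 17.3%. The median log2 difference of the members was 0.26, and that of all tested genes -0.00485.

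Cd80 went from 1.75, 2.01 and 1.35 CPM to 2.61, 3.05 and 2.97 CPM. That is a log2 difference of 0.76 ± 0.28 (SE; edgeR adjusted p = 0.119), with a 95% interval of 0.15 to 1.37. Lag3 went from 9.63, 6.87 and 7.83 CPM to 12.3, 11.2 and 9.75 CPM, a log2 difference of 0.45 ± 0.19 (SE; edgeR adjusted p = 0.152). Tox went the other way, from 59.3, 53.7 and 59.3 CPM to 40.1, 46.9 and 48.9 CPM, a log2 difference of -0.34 ± 0.12 (SE; edgeR adjusted p = 0.109). In a fit of these 6 libraries alone Tox passed (edgeR adjusted p = 0.0316).

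T cell genes summed to 4440 to 4570 CPM in the unirradiated and 3470 to 3930 CPM in the irradiated WT nodes, and 3 of 13 fell (Cd2, Cd5 and Trbc2). Relative to that sum, with the median of all genes moved from -0.00485 to 0.26, Lag3 at 0.72 and Cd80 at 1.02 passed (adjusted p = 0.0288 and 0.0278 in edgeR). Calls over all genes were then 3551 higher and 105 lower in place of 472 and 333. Dendritic cell genes summed to 576 to 592 CPM without and 418 to 466 CPM with UVB, where 1 of 8 fell, and in Ifnk TG nodes to 543 to 584 CPM without and 452 to 503 CPM with it. By gene, 5 of 8 lay higher with UVB in WT nodes (median log2 difference 0.15) and 1 of 8 in Ifnk TG nodes (median -0.18). Erythroid genes summed to 121 to 261 CPM without and 10.8 to 39.5 CPM with UVB in WT nodes. The part of any of these in the members' values was not tested.

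Of the companions, Icos rose 2.17-fold (edgeR adjusted p = 0.0213), Irf1 1.45-fold, Socs1 1.48-fold and Ahr, the receptor for kynurenines, 1.7-fold. Ctla4, at 13.8 ± 3.5 and 26.5 ± 2.8 CPM (SD, n = 3 each), and Tnfrsf14, at 31.4 ± 1.6 and 44.9 ± 1.0 CPM (SD, n = 3 each), did not overlap but did not pass (adjusted p = 0.0678 and 0.103 in edgeR). Lgals9, the gene of galectin-9, fell by 0.57 on the log2 scale, Pecam1 fell by 0.43 and Cd5 fell by 0.38. In all, 1 of 8 co-stimulatory receptors, 3 of 12 interferon-gamma genes and 1 of 6 kynurenine genes rose, and 2 of 11 other inhibitory receptors and 1 of 10 ligands fell. The 805 calls over all genes rest on each library, with 493 without UVB replicate 7, 277, 190 and 7 without unirradiated replicates 1, 2 and 3, 29 without UVB replicate 9 and 0 without UVB replicate 8.

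In Ifnk TG nodes no member passed the test of UVB in edgeR or DESeq2, and edgeR called 0% of all genes while DESeq2 called 137. No member had all irradiated libraries above all unirradiated ones, against 6.23% of genes, or all below, against 7.11%. At an unadjusted p under 0.05 in edgeR there were 1507 genes (9.32%) and Cd274 alone of the members (unadjusted p = 0.011). Its CPM were 41.9, 34.5 and 36.3 without UVB and 62.9, 63.3 and 35.8 with it, so that 2 irradiated libraries stood above all others and TG UVB replicate 12 did not. The log2 difference was 0.52 ± 0.18 (SE; edgeR adjusted p = 0.398). Without replicate 12 it was 0.73 and passed, as did 236 genes in all (edgeR adjusted p = 0.0178). That library also stood apart for Pdcd1, at 13.3 CPM against 6.22 and 5.25, and for Tigit, at 6.49 against 3.23 and 2.58 CPM in the other 2. It was highest for Btla, at 225 against 178 and 166 CPM. For Lag3, at 12.15 against 11.54 and 9.61 CPM, and Havcr2, at 2.97 against 4.8 and 2.68 CPM, it did not stand apart.

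Between genotypes no member was called by edgeR or DESeq2 with or without UVB, and edgeR called 0% of all genes in either case. In unirradiated nodes 549 genes (3.39%) had an unadjusted p under 0.05, with Cd274 the member among them. It was lower in all 3 Ifnk TG libraries (34.5 to 41.9 CPM) than in the 3 WT libraries (46.9 to 55.4 CPM), by -0.41 ± 0.18 on the log2 scale (SE; edgeR adjusted p = 1), where 4.93% of genes lay lower and 5.52% higher in every library. After UVB 1131 genes (6.99%) had an unadjusted p under 0.05, with 2 of 9 members. Cd80 was lower in all 3 Ifnk TG libraries (1.32 to 2.38 CPM) than in WT (2.61 to 3.05 CPM), at -0.64 ± 0.28 on the log2 scale (SE; edgeR adjusted p = 0.702), and 4.32% of genes were lower and 5.39% higher in every library. Tox was higher on average, at 0.31 ± 0.12 (SE; edgeR adjusted p = 0.685), with overlapping libraries. DESeq2 called 2 genes without and 19 with UVB.

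The UVB response of the 2 genotypes was compared by an interaction term, in which the 4 groups of the comparisons above are used again. No member passed in edgeR or DESeq2, nor did any gene in edgeR (0%), while DESeq2 called 8. At an unadjusted p under 0.05 edgeR held 881 genes (5.45%) and 1 of 9 members, Tox, whose log2 response was 0.42 ± 0.18 higher in Ifnk TG nodes (SE; edgeR adjusted p = 0.848). Over the 9 members the terms ran from -0.60 for Havcr2 (95% interval -1.53 to 0.33) to 0.48 for Btla (-0.10 to 1.05). With 3 libraries per group both intervals still hold a difference in response of more than 2-fold. So do those of Cd80 (-1.425 to 0.302), Pdcd1 (-1.102 to 0.615) and Tigit (-0.774 to 1.233).

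**Figure D5:**
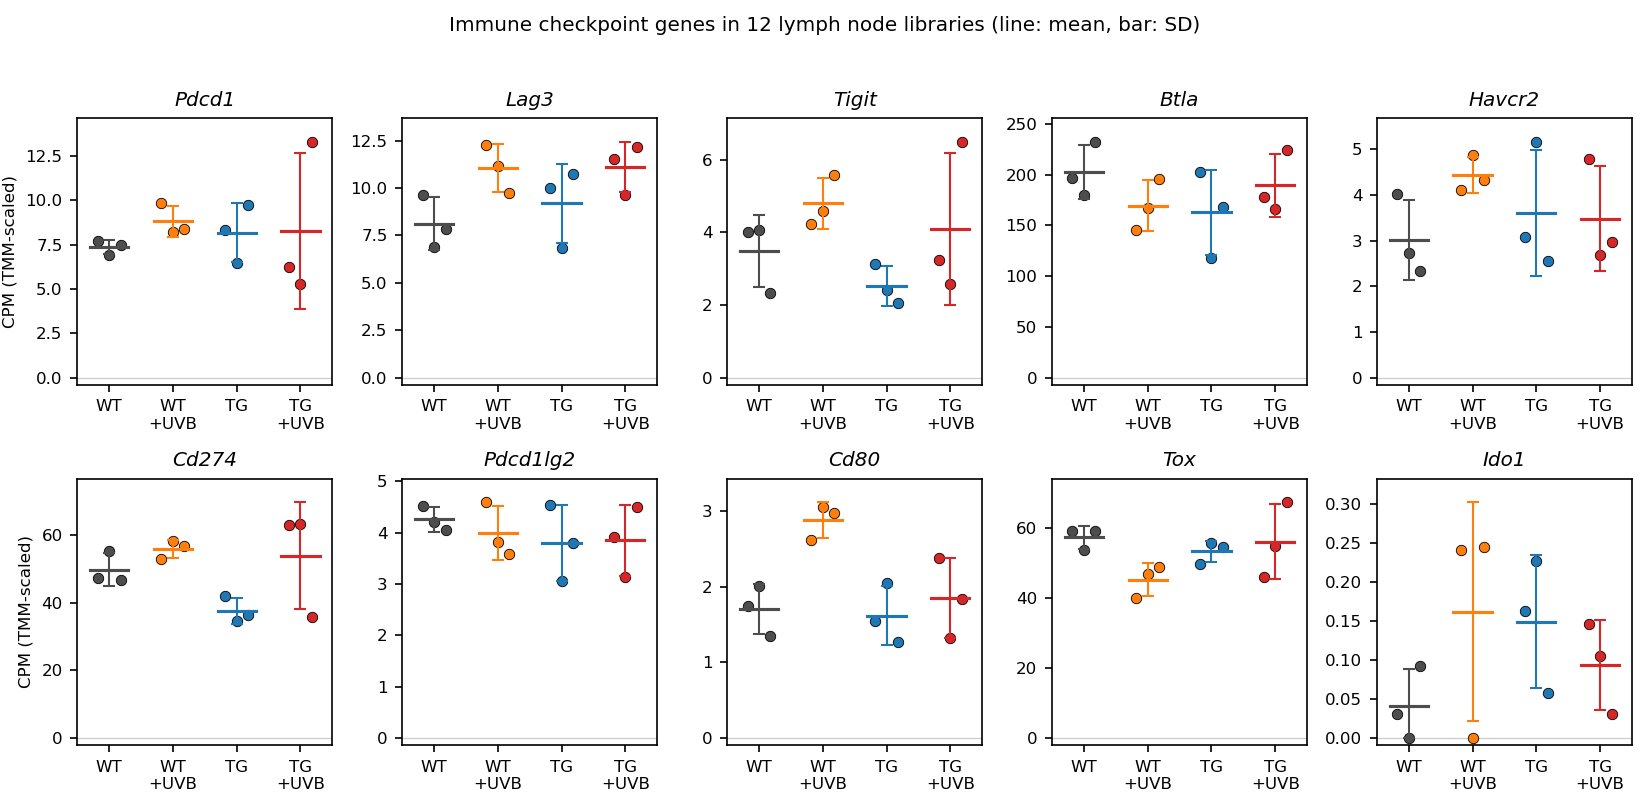
CPM of each checkpoint gene (vertical axes, linear, TMM-scaled) in unirradiated and irradiated nodes of WT and Ifnk TG mice, 3 libraries per group, with the mean as a line and the SD as a bar. Cd80 in irradiated WT nodes lies at 2.61 to 3.05 CPM, above all unirradiated points, and Cd274 in irradiated Ifnk TG nodes has 2 points near 63 CPM and 1 at 35.8 CPM.

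Likeness was described by Pearson's r of log2 CPM, over 9 skin or 12 node libraries that share their group structure and scaling. In skin Pdcd1 and Pdcd1lg2 ran together (r = 0.951), as did Tigit with Pdcd1lg2 (0.939) and with Btla (0.929), while Tox ran against Btla (-0.758). The genes most like Pdcd1 were Ang2 (0.987), Fam43a (0.98) and Tent5c (0.978), and those most like Pdcd1lg2 were Scube3 (0.991), Igsf3 (0.989) and Haspin (0.987). Lag3 was closest to Id1 (0.967), Tnfrsf9 (0.964) and Sprr1b (0.964), and Cd80 to the myeloid genes Lrrc25 (0.982), Fcgr2b (0.963) and Fcer1g (0.948). Ido1, with few counts, was closest to the immunoglobulin genes Iglv1 (0.948) and Iglc2 (0.939). In the nodes Cd274 was closest to Zup1 (0.953), Samd9l (0.944) and Rnf31 (0.923), and Lag3 to Diaph3 (0.95), Rhoq (0.93) and Fam83d (0.923).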

How the data were processed

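Bulk poly-A RNA-seq of mouse skin (9 libraries) and inguinal lymph node (12 libraries) was used. The values deposited by the authors are expected counts per gene from RSEM 1.3.3, after trimming with cutadapt 4.8 and alignment with STAR 2.7.8a to GRCm38, with FastQC 0.11.8 and MultiQC 1.20 named for quality control in the submitters' processing notes; none of the 665892 node and 499419 skin values used differed from a whole number. The annotation release and the strand setting are not given in the sources used here. Every column was mapped to a sample (0 left over), and each library's group was taken from its label.

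In each tissue all groups were fitted together with edgeR 4.0.16 in R 4.3.3 (TMM, filterByExpr with a minimum count of 10 and minimum total of 15, robust quasi-likelihood test). P-values were adjusted by Benjamini-Hochberg over all genes tested, and genes under 0.05 were called. The SE was taken as the absolute log2 fold change over the square root of F. Log2 CPM used a prior count of 2. The script was tested on simulated data. A count of 0 was bounded by a floor of 3 counts per library, and floors and Poisson intervals (95%) cover counting error only, since molecules were not tagged. No 2 replicates agreed within sampling noise.

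Members and gene lists were chosen with earlier results of these data known. From each companion list up to 2 called genes per direction with the lowest adjusted p were named, with Ctla4, Cd86 and Tnfrsf14 always allowed, marker genes as a check of the tissue, and for likeness the 3 genes with the highest Pearson r. Alternatives were DESeq2 1.42.0, RLE scaling, scaling to T cell or myeloid genes, no filter, at least 10 counts in every library, no robust estimation, the compared groups alone and leaving out each library. Promoter sequences are from RefSeq (GRCm38.p6).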

Additional observations from a re-analysis of the deposited data

Results flagged for a closer look

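In groups of 4 libraries, which only lesional skin has, a library stood far from the rest for 2 of 10 members. The lowest Havcr2 value in lesional skin, 3.8 CPM in replicate 7, was separated from the next by 0.881 of the group's range. The highest Lag3 value, 2.51 CPM in replicate 6, was separated from the next by 0.843 of the range. Both lie above the 95% critical value of Dixon's test for 4 libraries, and chance alone flags about 1 in 20 groups. Replicate 7 also had the lowest sum of T cell genes in lesional skin, at 55.2 CPM, and its part in the Havcr2 value was not tested.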

How the results depend on the processing

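Among the planned settings that kept all libraries, 101 of 126 counts of calls stayed within 1.5 times the reported value and 539 of 572 member values kept their direction and side of the threshold. Pdcd1, Pdcd1lg2 and Tigit were called between L and WT skin in every such setting that tested them. These genes passed the filter on low counts only through the L libraries. The setting with a minimum count in every library left them out, so it could not test their calls. No paired analysis was possible because the labels number the libraries once per tissue and no 2 groups share a number. Where a value below differs from the reported one, the cause was not tested.

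Between L and WT skin, myeloid scaling gave 2926 calls over all genes (reported 8237), and a minimum of 10 counts in every library left 5 members to test, of which 2 were called. Counted only among genes that passed the filter without L libraries, chosen after seeing the data, 3 of 6 members were called against WT and 1 of 6 against NL skin. Between L and NL skin (reported 4782 genes and 4 members), T cell scaling gave 2060 genes and 2 members, myeloid scaling 1785 genes and 2 members, the groups alone 3156 genes, and the minimum of 10 counts 0 of 5 members. Tigit and Btla then lost their calls, at adjusted p of 0.0981 and 0.0915 with T cell scaling and 0.168 for both with myeloid scaling (edgeR); calls over all genes were 744 higher and 1316 lower with T cell scaling in place of 2519 and 2263. Between NL and WT skin (reported 0), myeloid scaling gave 28 genes, DESeq2 80 and the groups alone 1. For UVB in WT nodes (reported 805 genes and 0 members), T cell scaling gave 3656 genes and 2 members, DESeq2 2002 genes, and the groups alone 2431 genes and 1 member; myeloid scaling split the calls into 924 higher and 152 lower. For UVB in Ifnk TG nodes (reported 0), myeloid scaling gave 181 genes and DESeq2 137. Between genotypes (reported 0), unirradiated nodes gave 25 genes with myeloid scaling and 2 with DESeq2, and irradiated nodes 78 with myeloid scaling, 19 with DESeq2 and 1 with no filter. The interaction (reported 0) gave 21 genes with myeloid scaling and 8 with DESeq2.

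Values that were not called changed sign as follows. With T cell scaling the log2 difference became -0.589 for Havcr2 in L against WT skin and -0.455 in L against NL skin, where myeloid scaling gave -0.166. In NL against WT skin it became -0.064 for Cd274, -0.134 for Havcr2 and -0.074 for Tox with T cell scaling, and 0.049 for Pdcd1lg2 and 0.59 for Btla with myeloid scaling. In nodes with T cell scaling it became 0.184 for Pdcd1lg2 (UVB in WT), -0.016 for Pdcd1 (UVB in Ifnk TG), 0.024 for Tox and 0.057 for Cd80 (genotype, unirradiated), -0.139 for Lag3 (genotype, UVB), and -0.177 for Pdcd1lg2 and -0.063 for Tigit (interaction). With myeloid scaling it became 0.059 for Pdcd1lg2 (UVB in WT), 0.112 for Havcr2 (UVB in Ifnk TG), and -0.18 for Lag3 and -0.054 for Btla (genotype, UVB).

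Leaving out 1 library at a time gave 5 to 7 members and 6243 to 8028 genes called between L and WT skin; Cd274 was lost without WT replicate 9 or 10 and Havcr2 was gained without L replicate 7. Between L and NL skin it gave 1182 to 5187 genes (1470 without NL replicate 2 and 1182 without NL replicate 3) and 2 to 5 members. For UVB it gave 0 to 493 genes in WT nodes, and 0 to 236 genes with 0 to 1 members in Ifnk TG nodes (236 and 1 without UVB replicate 12). Between genotypes it gave 0 to 1 genes in unirradiated and 0 to 2 in irradiated nodes, and 0 to 1 for the interaction. Log2 differences that changed sign ranged from -0.37 to 4.29 for Ido1 (L against WT skin) and from -0.159 to 0.41 for Havcr2 (L against NL skin). In NL against WT skin they ranged from -0.458 to 0.168 for Btla, -0.518 to 0.656 for Cd274, -0.09 to 0.494 for Havcr2, -2.734 to 0.791 for Ido1 and -0.076 to 0.638 for Tox. For UVB in Ifnk TG nodes they ranged from -0.027 to 0.391 for Cd80, -0.347 to 0.296 for Havcr2, -0.525 to 0.257 for Pdcd1, -0.125 to 0.163 for Pdcd1lg2 and -0.097 to 0.204 for Tox. Between genotypes they ranged from -0.281 to 0.072 for Cd80 and -0.105 to 0.505 for Havcr2 without UVB, and with UVB from -0.173 to 0.174 for Cd274, -0.062 to 0.115 for Lag3, -0.616 to 0.166 for Pdcd1, -0.178 to 0.089 for Pdcd1lg2 and -0.723 to 0.036 for Tigit. For the interaction they ranged from -0.762 to 0.021 for Pdcd1, -0.011 to 0.277 for Pdcd1lg2 and -0.265 to 0.495 for Tigit. In WT and NL skin Pdcd1, Pdcd1lg2 and Tigit held 0 to 5 counts per library, which limits what their comparison can show.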
